A study of Mus musculus with 55 samples.

Results

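The NMDA receptor subunit genes Grin1, Grin2a, Grin2b, Grin2c, Grin2d and Grin3a were taken by name from a table of 55487 mouse genes counted by RNA-seq in dorsal hippocampus. All 6 were among the 16168 genes that passed the filter on low counts (over 1 CPM, counts scaled to the library total, in at least 10 libraries). The remaining family member Grin3b had 0 to 31 counts per library and was not tested.

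NMDA receptors are glutamate-gated cation channels that open only when glutamate and a co-agonist, glycine or D-serine, are bound and the membrane is depolarised, and their calcium current is known for starting long-term potentiation in the hippocampus. Every receptor holds the obligatory glycine-binding subunit encoded by Grin1. Grin2a to Grin2d encode the glutamate-binding subunits that set the channel's kinetics and magnesium block, of which Grin2a and Grin2b are the main forms of adult forebrain neurons, and Grin3a encodes a glycine-binding subunit that lowers calcium permeability.

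The series compared wild-type (WT) mice with mice lacking exon 4 of Cnih3, the gene of an AMPA receptor auxiliary protein (KO), on a C57/BL6j background, in 10 groups given by genotype and by estrous stage or male sex. There were 4 WT metestrus, 6 WT diestrus, 5 WT proestrus, 7 WT estrus and 5 WT male mice, and 5 KO metestrus, 6 KO diestrus, 4 KO proestrus, 6 KO estrus and 7 KO male mice, aged 10.9 to 23.7 weeks. One hippocampus of each mouse gave 1 library, with total counts over genes of 25881300 to 63547100 (median 53384200). Of the 55 mice, 39 came from matings with at least 1 parent carrying the Cnih3 mutation, called Cnih3 matings here. The other 16, all WT, came from B6 x B6 parents, so genotype and breeding were partly joined. Cnih3 itself was counted in both genotypes, at 4.43 to 5.97 log2 CPM (median 5.30) in 27 WT mice and 4.43 to 5.58 (median 4.96) in 28 KO mice, and this count over the whole gene did not measure the missing exon.

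A set of 7 diestrus mice stood apart from the other 48 mice. They were the 7 of 12 diestrus mice under 14 weeks of age, WT mice 548, 549 and 569 and KO mice 532, 643, 644 and 645, and they were set apart after their values had been seen. They were also the only mice named by a 3-digit number alone. What that naming stands for is not in the labels, and within diestrus it cannot be told apart from age. Their mean log2 CPM over 5 nuclear-retained RNAs (Malat1, Neat1, Meg3, Snhg11 and Miat) was 5.26 to 6.14, and it was 6.29 to 8.41 in the other 48 mice. The other 10 mice under 14 weeks, from other stages and males, lay at 6.92 to 8.39 and the 5 older diestrus mice at 7.79 to 8.40. Of 16 marker lists, this was the one whose ranges did not overlap. Several others shifted with partial overlap: the mean was 7.34 to 7.75 in the 7 mice against 7.61 to 8.73 in the other 48 for mature oligodendrocytes, 2.06 to 2.46 against 2.20 to 3.13 for oligodendrocyte precursors, 4.10 to 4.59 against 4.37 to 5.10 for microglia and 5.25 to 5.84 against 5.72 to 6.36 for CA1 pyramidal cells, all toward lower values. CA3 markers lay toward higher values, at 5.81 to 6.15 against 5.34 to 6.01. Pan-neuronal markers lay inside the range of the others, at 9.72 to 9.83 against 9.50 to 9.88, although 3 of 5 were called higher and 1 lower in diestrus than in estrus in each genotype, with median log2 fold changes of 0.32 in WT and 0.28 in KO. The part of these cell types in the results was not tested. Depth was like that of the others, with total counts between 52308000 and 58932900. In the fit, which weights each library by its quality, the weights of the young KO diestrus mice were 1.61 to 1.74 and those of the older ones 0.43 to 0.51. In WT they were 0.76 to 1.14 and 0.33 to 0.93. Called diestrus results are therefore given with and without these 7 mice. Leaving them out kept 3 WT and 2 KO diestrus mice, and limma then called no gene in the diestrus stage pairs. A call lost there is therefore not particular to its gene. In bulk tissue, fewer cells of a type and less RNA per cell cannot be told apart.

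Per kilobase of merged exons, the forebrain pair had the highest levels of the family. Levels between genes were compared as CPM per kilobase of merged exons (GENCODE M21), with medians over 55 mice. Merged exons join those of all annotated transcripts, 14 for Grin1, 6 for Grin2a and 7 for Grin2b. Where the main mRNA of a gene is shorter than its merged exons, this measure is too low, which limits the order of the genes. Grin2a stood at 18.6 (range 9.44 to 25.5) and Grin2b at 13.7 (8.18 to 20.4), which came to 48.8% and 36.3% of the summed level of the 6 genes in the median mouse. Grin1 followed at 4.05 (1.49 to 6.82), then Grin3a at 0.85 (0.56 to 1.19), Grin2c at 0.39 (0.19 to 0.83) and Grin2d at 0.26 (0.13 to 0.45). Neighbours in this order overlapped in range for Grin2a with Grin2b, for Grin3a with Grin2c and for Grin2c with Grin2d, while the lowest value of Grin1 lay above the highest of Grin3a. Grin2c rested on 25 to 232 counts per library and Grin2d on 43 to 150, whereas Grin2a rested on 7183 to 23480.

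**Figure D1:**
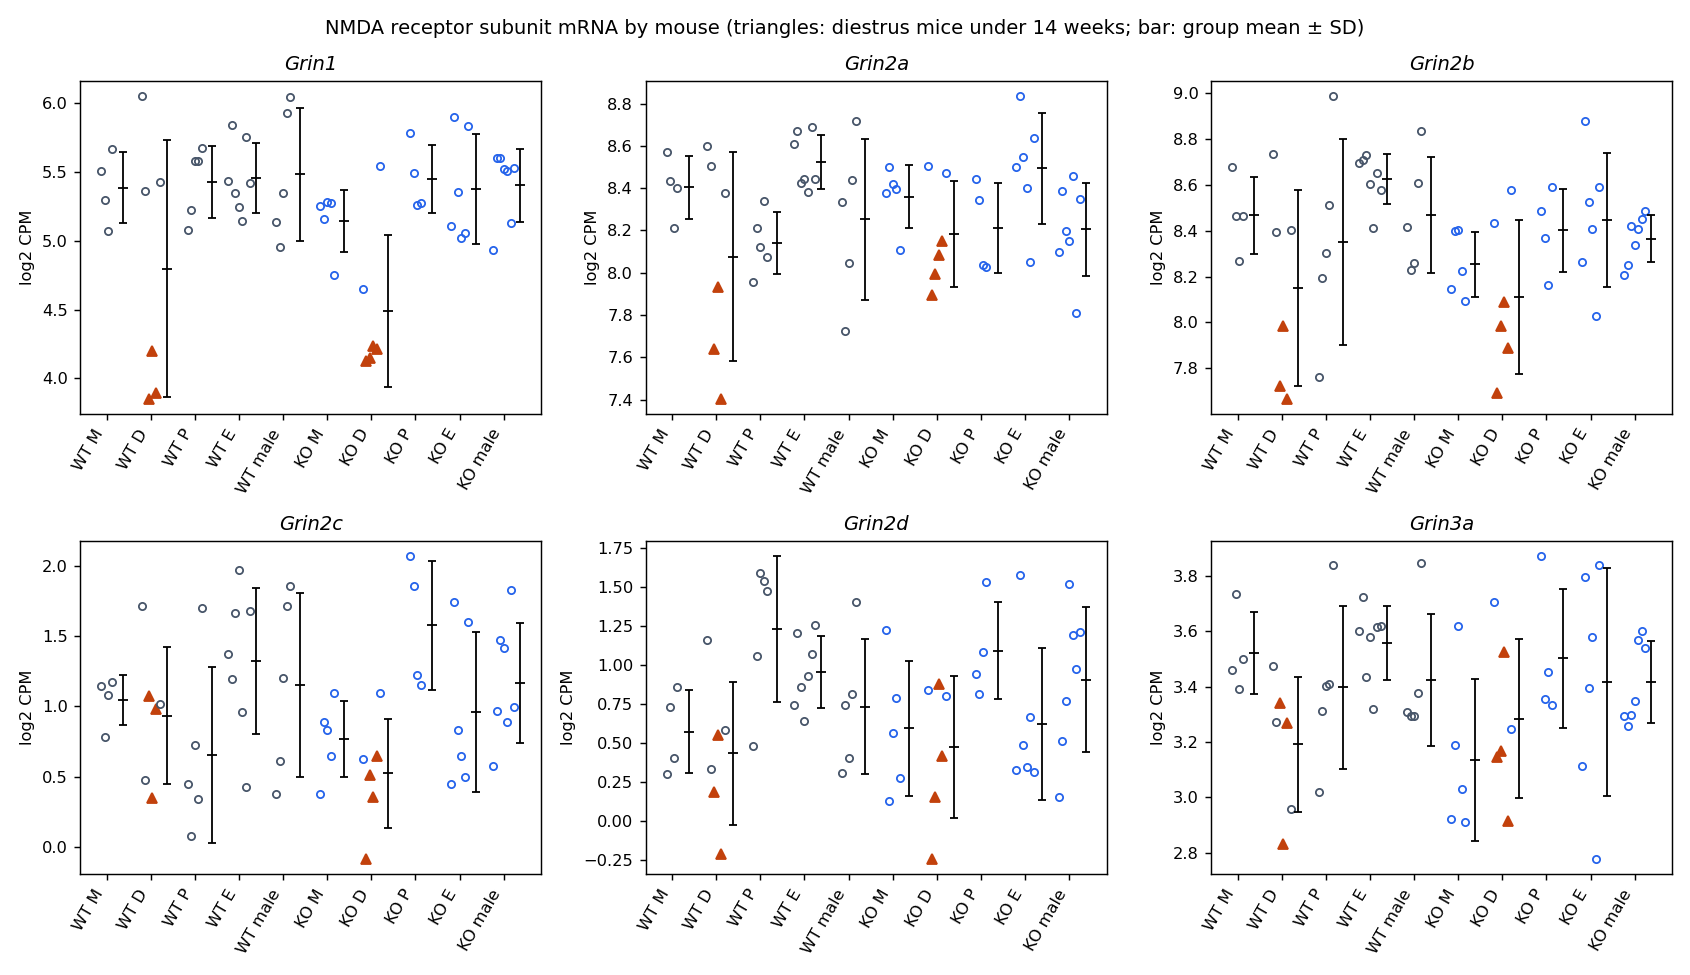
Level of each NMDA receptor subunit mRNA (log2 CPM, vertical axis) in every mouse of the 10 groups (horizontal axis; M for metestrus, D for diestrus, P for proestrus and E for estrus), with grey circles for WT, blue circles for KO, filled triangles for the 7 diestrus mice under 14 weeks, and bars for the group mean ± SD. For Grin1 all 7 triangles, at 3.85 to 4.24, lie below the other 48 mice, whereas for Grin3a none lies below all others.

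Grin1, the subunit every NMDA receptor requires, lies on the minus strand of chromosome 2 (25291181 to 25319187, GRCm38) and its merged exons span 9700 bases. The antisense gene Grin1os overlaps it on the opposite strand, and the library kit did not mark strand, so reads of the pair cannot be told apart where they overlap. Its RefSeq promoter, from 250 bases before to 50 after the start (chr2:25319138-25319437, minus strand, GRCm38.p6), is shown because this gene had the largest SD between group means of the 6 (0.34), with its GC box (GGGCGG) in capitals:

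Grin1 promoter: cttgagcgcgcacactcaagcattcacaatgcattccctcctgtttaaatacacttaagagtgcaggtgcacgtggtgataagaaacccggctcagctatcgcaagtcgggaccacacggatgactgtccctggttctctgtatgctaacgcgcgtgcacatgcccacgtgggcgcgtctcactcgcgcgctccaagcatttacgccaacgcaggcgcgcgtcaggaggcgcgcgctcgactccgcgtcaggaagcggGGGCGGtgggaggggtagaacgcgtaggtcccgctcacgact

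Searched on both strands, this promoter held 1 GC box, 1 EGR1 motif (GCGGGGGCG, overlapping the GC box), 2 E-boxes (CACGTG) and no estrogen response element in its full form or its short form (GGTCA). Among 32851 promoters of the same length, 35.7% held the GC box, 2.91% the EGR1 motif, 7.15% the E-box, 0.07% the full estrogen element and 40.5% its short form. These are matches of letters only.

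In WT diestrus, Grin1 was at 3.85, 4.20 and 3.89 log2 CPM in mice 548, 549 and 569 and at 6.05, 5.36 and 5.42 in the 3 older mice (4.80 ± 0.93, SD, n = 6). In KO diestrus it was at 4.13, 4.15, 4.24 and 4.21 in mice 532, 643, 644 and 645, at 4.65 in mouse 2592 and at 5.54 in mouse 7_1 (4.49 ± 0.55, n = 6). The 7 young diestrus mice thus formed a low set of their own in both genotypes, and the 3 older WT diestrus mice lay inside or above the range of WT estrus, 5.14 to 5.84 (5.45 ± 0.25, n = 7). The other groups had means of 5.38 ± 0.26 in WT metestrus, 5.43 ± 0.26 in WT proestrus, 5.48 ± 0.48 in WT males, 5.14 ± 0.23 in KO metestrus, 5.45 ± 0.25 in KO proestrus, 5.38 ± 0.40 in KO estrus and 5.40 ± 0.26 in KO males.

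With all mice in the fit (limma voom with quality weights, FDR by Benjamini-Hochberg), Grin1 fell in diestrus against each other stage in both genotypes. Against estrus the log2 fold change was -0.91 ± 0.21 (SE) in WT (FDR = 0.0023) and -1.15 ± 0.20 in KO (FDR = 4.1e-05). Against proestrus it was -0.85 ± 0.24 in WT (FDR = 0.019) and -1.23 ± 0.21 in KO (FDR = 1.6e-05). Metestrus lay above diestrus by 0.79 ± 0.23 in WT (FDR = 0.028) and by 0.88 ± 0.20 in KO (FDR = 0.0034). KO diestrus was also below KO males, by -1.12 ± 0.18 (FDR = 1.0e-05). The matching WT difference was -0.98 and not called (FDR = 0.086), and it was -0.015 without the 7 young diestrus mice. The interaction between the genotypes, -0.14, was not called. Without the 7 young diestrus mice none of these calls remained, but no gene at all was then called in the diestrus stage pairs. The diestrus to estrus change then became 0.049 in WT (FDR = 0.96) and -0.35 in KO (FDR = 1.00), and the change from KO males -0.33 (FDR = 0.78). Against proestrus it became 0.12 in WT and -0.44 in KO, and for metestrus against diestrus -0.16 in WT and 0.090 in KO, with FDR from 0.82 to 1.00. The WT calls were lost on leaving out any 1 of mice 548, 549 and 569, with log2 fold changes against estrus between -1.28 and -0.22 over the 55 fits that each left out 1 mouse. Those against metestrus were also lost without WT metestrus mouse 13_1 or 5_1, and those against proestrus without WT proestrus mouse 4_1, over ranges of 0.11 to 1.17 and -1.22 to -0.15.

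**Figure D2:**
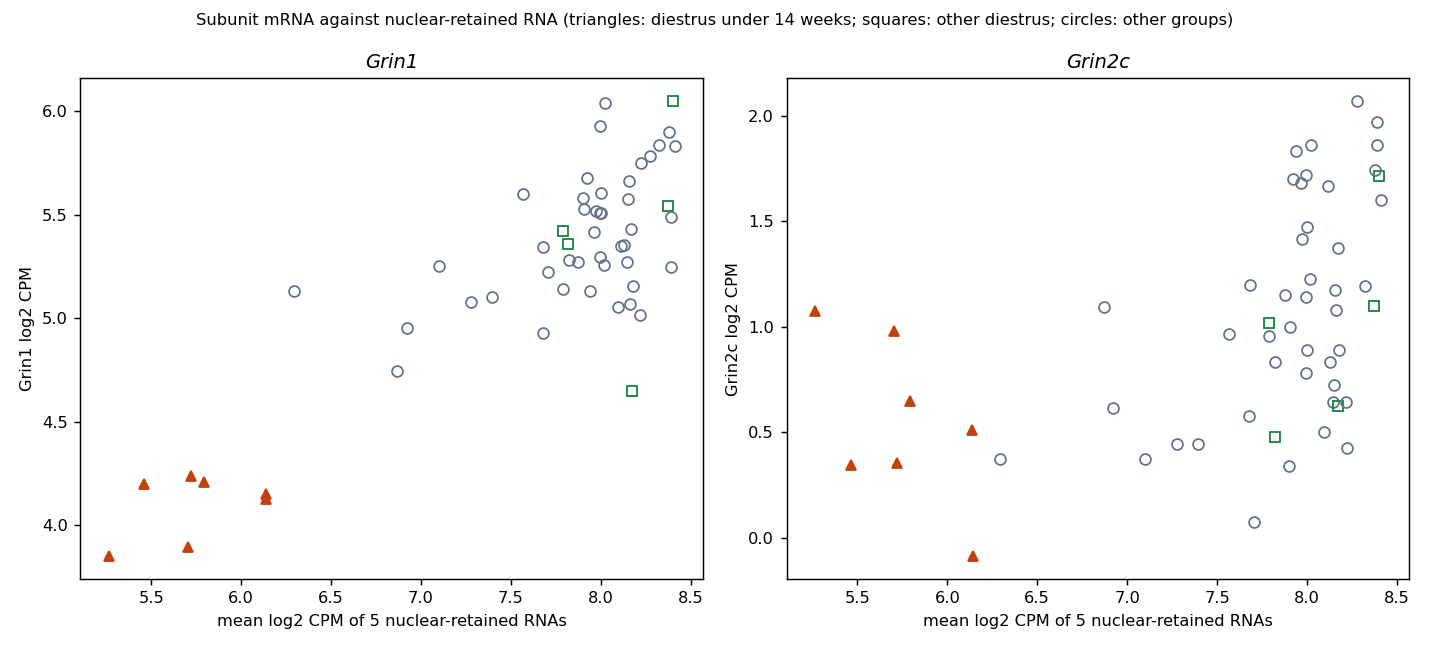
Grin1 (left) and Grin2c (right) in log2 CPM against the mean log2 CPM of 5 nuclear-retained RNAs in each of 55 mice, with filled triangles for the 7 diestrus mice under 14 weeks, squares for the other 5 diestrus mice and circles for the other groups. The triangles lie apart at the low end of both axes for Grin1, and for Grin2c they overlap the other mice in level.

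The nuclear-retained RNAs moved with Grin1. All 5 were called lower in diestrus than in estrus in WT and in KO, with median log2 fold changes of -1.86 and -1.995. Without the 7 mice, where no gene was called in these comparisons, the medians were -0.15 and 0.056. Within the other 48 mice, with group means removed, Pearson's r between Grin1 and the mean of these RNAs was 0.62. It was higher with the markers of CA1 pyramidal cells (0.76) and of oligodendrocyte precursors (0.66). These are descriptions, since all points share the same normalisation. Outside the 7 mice, the libraries lowest in nuclear-retained RNA were WT male 1949 (6.29), KO metestrus mouse 7_2 (6.87) and WT male 19_1 (6.92), and their Grin1 was 5.13, 4.75 and 4.95. The submitters' protocol purified RNA from the supernatant of a detergent lysate after a spin, and the part of nuclear RNA in the Grin1 difference was not tested.

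Grin2a, which encodes the fast-kinetics subunit that comes to predominate in the adult forebrain, lies on chromosome 16 (9567898 to 9995560, minus strand). In WT diestrus it was at 7.64, 7.93 and 7.40 in mice 548, 549 and 569 and at 8.60, 8.50 and 8.38 in the 3 older mice. WT estrus ran from 8.38 to 8.69 with a median of 8.45. The young WT diestrus mice thus lay below all WT estrus mice, whereas the older ones lay within or next to their range. Grin2a fell in diestrus against estrus by -0.55 ± 0.13 in WT (FDR = 0.0021) and -0.43 ± 0.12 in KO (FDR = 0.0055). Without the 7 mice these values were -0.064 (FDR = 0.91) and -0.036 (FDR = 1.00). The WT call was also lost without any 1 of mice 548, 549 and 569 (range -0.73 to -0.20) and the KO call without KO estrus mouse 12_2 (range -0.52 to -0.33).

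Grin2b, the early-expressed partner with slower kinetics and strong binding to CaMKII, lies on chromosome 6 (135713233 to 136173511, minus strand). It was at 7.72, 7.99 and 7.67 in the young WT diestrus mice 548, 549 and 569, at 8.74, 8.39 and 8.40 in the 3 older mice, and between 8.41 and 8.73 (median 8.65) in WT estrus. In KO diestrus the young mice 532, 643, 644 and 645 had 7.69, 7.98, 8.09 and 7.89, and the older mice 2592 and 7_1 had 8.43 and 8.58. The split by age within diestrus was the same in both genotypes. Grin2b fell against estrus by -0.58 ± 0.12 in WT (FDR = 0.0014) and -0.51 ± 0.12 in KO (FDR = 0.0012), and in KO also against proestrus by -0.41 ± 0.13 (FDR = 0.0085) and against males by -0.38 ± 0.11 (FDR = 0.0062). Without the 7 mice these changes were -0.17, 0.0080, 0.096 and 0.12, with FDR from 0.77 to 1.00. The WT call was lost without any 1 of mice 548, 549 and 569 (range -0.73 to -0.28), the KO call against males without mouse 532 (-0.46 to -0.27) and that against proestrus without mouse 532 or KO proestrus mouse 12_4 (-0.46 to -0.30).

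A smaller difference in the forebrain pair did not involve diestrus. Grin2a was between 7.95 and 8.34 in 5 WT proestrus mice and between 8.38 and 8.69 in 7 WT estrus mice, and the groups did not overlap. Grin2b was between 7.76 and 8.99 in proestrus and between 8.41 and 8.73 in estrus, and the groups overlapped, with mouse 8_2 the highest. The log2 fold changes were -0.37 ± 0.12 for Grin2a (FDR = 0.046) and -0.38 ± 0.12 for Grin2b (FDR = 0.040), and without the 7 diestrus mice -0.38 (FDR = 0.015) and -0.39 (FDR = 0.015). For Grin2b the plain means, 8.35 in proestrus and 8.63 in estrus, lay closer together than in the fit. The fit gave mouse 8_2 a weight of 0.19 and the other WT proestrus mice 0.67 to 1.89. Both calls were close to the threshold, and were lost in 23 and 18 of the 55 fits that each left out 1 mouse, with log2 fold changes of -0.39 to -0.30 and -0.43 to -0.27. Choroid plexus markers moved with this comparison, 6 of 7 being called higher in proestrus with a median log2 fold change of 3.16; their mean log2 CPM was 1.07 to 4.95 in WT proestrus, and their part was not tested.

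Grin2c, best known from cerebellar granule cells and, in forebrain, from astrocytes and some interneurons, lies on chromosome 11 (115249169 to 115267243, minus strand). Its promoter (chr11:115267194-115267493, minus strand, GRCm38.p6) is shown because this gene gave the single member call between genotypes within a stage, again with GC boxes in capitals:

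Grin2c promoter: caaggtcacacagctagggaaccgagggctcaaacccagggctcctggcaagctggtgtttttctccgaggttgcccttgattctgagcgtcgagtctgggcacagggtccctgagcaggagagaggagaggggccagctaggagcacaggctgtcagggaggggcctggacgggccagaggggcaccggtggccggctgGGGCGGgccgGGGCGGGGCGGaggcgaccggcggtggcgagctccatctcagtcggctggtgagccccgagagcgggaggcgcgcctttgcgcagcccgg

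It held 3 GC boxes and 1 short form of the estrogen response element (GGTCA) near its far end, with no full form. The RefSeq table matched 3 of the 6 members, Grin1, Grin2c and Grin2d. The promoter listed for Grin2d (chr7:45866632-45866931, minus strand) lies inside the gene span given below and not at its outer end. It held none of the motifs named here.

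In WT proestrus Grin2c was at 0.45, 0.074, 0.73 and 0.34 in mice 20_2, 2_3, 4_1 and 5_4 and at 1.70 in mouse 8_2 (0.66 ± 0.63, n = 5). In KO proestrus it was at 2.07, 1.86, 1.23 and 1.15 in mice 12_4, 12_5, 14_1 and 14_2 (1.58 ± 0.46, n = 4). The groups overlapped only through WT mouse 8_2, and the counts were low, from 25 to 119 in WT and 66 to 232 in KO. The fitted difference was 1.29 ± 0.28 (FDR = 0.036), the only member call between genotypes within a stage. This is larger than the gap between the plain means of 1.58 and 0.66. The fit gave mouse 8_2 a weight of 0.19 and the other WT mice 0.67 to 1.89. KO mice 12_4 and 12_5 had 1.63 and 1.94, and 14_1 and 14_2 had 0.88 and 0.58. The call was lost without KO mouse 12_4 or 12_5 or WT mouse 2_3 or 20_2 (range 1.01 to 1.45), and without quality weights. It was also lost without the 7 diestrus mice, whose removal left the fold change at 1.30 and moved the FDR to 0.058. Among mice of Cnih3 matings, which left 1 WT proestrus mouse, the difference was 0.093. Of the WT proestrus mice only 8_2 lay in the KO range, so this value rests on 8_2.

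Within KO, Grin2c rose from metestrus and diestrus to proestrus. Metestrus (0.37 to 1.09, median 0.83) lay below each proestrus mouse, by -1.08 ± 0.25 (FDR = 0.019), a call that held without the 7 diestrus mice (-1.08, FDR = 0.030) and was lost without KO metestrus mouse 10_1 or KO proestrus mouse 12_4 or 12_5 (range -1.19 to -0.81). Endothelial markers moved with this comparison, 2 of 4 being called lower in metestrus and 0 higher, with a median log2 fold change of -0.94. Their part was not tested. KO diestrus was at 0.51, 0.35, 0.65 and -0.086 in mice 643, 644, 645 and 532 and at 0.62 and 1.10 in mice 2592 and 7_1. It lay below proestrus by -1.36 ± 0.25 (FDR = 3.8e-05), and by -0.93 with 2 diestrus mice left (FDR = 0.71). Against KO estrus (0.44 to 1.74) the change was -0.64 ± 0.25 (FDR = 0.048), or -0.20 without the young mice (FDR = 1.00), and the call was lost in 34 of the 55 fits that each left out 1 mouse (-0.80 to -0.42). In WT the direction from proestrus was the other one: proestrus lay below estrus (0.43 to 1.97, median 1.37) by -0.86 ± 0.27 (FDR = 0.040), or -0.87 without the 7 mice (FDR = 0.048), a call lost in 7 of the 55 fits that each left out 1 mouse (-1.01 to -0.71).

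The difference between genotypes in these stage changes was tested as an interaction. For Grin2c it was 1.58 ± 0.36 for proestrus against estrus (FDR = 0.070), -1.64 ± 0.39 for metestrus against proestrus (FDR = 0.12), -1.70 ± 0.40 for diestrus against proestrus (FDR = 0.28) and 1.55 ± 0.39 for proestrus against males (FDR = 0.30), none of which passed the threshold. Without the 7 young mice the third became -1.38 (FDR = 1.00). Unadjusted p-values of these 4 were 5.0e-05 to 0.00019. Over all 11 interactions limma called 0 of 66 member tests and 0% of all genes in each, 6 member tests having an unadjusted p under 0.05, and edgeR and DESeq2 called 0. Without the 2 WT proestrus mice of RNA integrity under 8 (8_2 and 4_1) the first 3 passed, at 1.85 (FDR = 0.024), -1.91 (FDR = 0.018) and -1.97 (FDR = 0.030).

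Grin2d, the slow subunit of interneurons and of early development, lies on chromosome 7 (45831883 to 45878378, minus strand), where Kdelr1 and Gm45441 overlap it on the opposite strand. WT proestrus was at 1.59, 1.54, 1.48 and 1.06 in mice 4_1, 5_4, 8_2 and 2_3 and 0.48 in mouse 20_2, and WT diestrus ran from -0.21 to 1.16 with a median of 0.44, so that the groups overlapped. Diestrus was lower by -0.92 ± 0.28 (FDR = 0.031), or -0.69 without the young diestrus mice (FDR = 0.72), and the call was lost without any 1 of mice 548, 549, 569, 4_1 and 5_4 (range -1.11 to -0.68). No other comparison of Grin2d passed, and KO proestrus was at 1.09 ± 0.31 (n = 4) against 0.47 ± 0.45 in KO diestrus, a fitted difference of -0.60 (FDR = 0.053) that became -0.15 without the young mice (FDR = 0.96).

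Grin3a, the glycine-binding subunit that damps calcium entry, lies on chromosome 4 (49661611 to 49845744, minus strand) and holds Ppp3r2 on the same strand. The SD between its 10 group means was 0.14, the smallest of the 6 members, with means from 3.13 ± 0.29 in KO metestrus to 3.56 ± 0.13 in WT estrus. WT diestrus was at 3.34, 2.83 and 3.27 in mice 548, 549 and 569 and at 3.48, 3.27 and 2.96 in the 3 older mice, so that young and older mice were mixed. Against WT estrus (3.32 to 3.72) it was lower by -0.46 ± 0.14 (FDR = 0.019). Without the young mice the size was -0.40 with an FDR of 0.75, and leaving out any 1 of them ended the call, with sizes between -0.49 and -0.42 over the 55 fits that each left out 1 mouse.

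**Figure D3:**
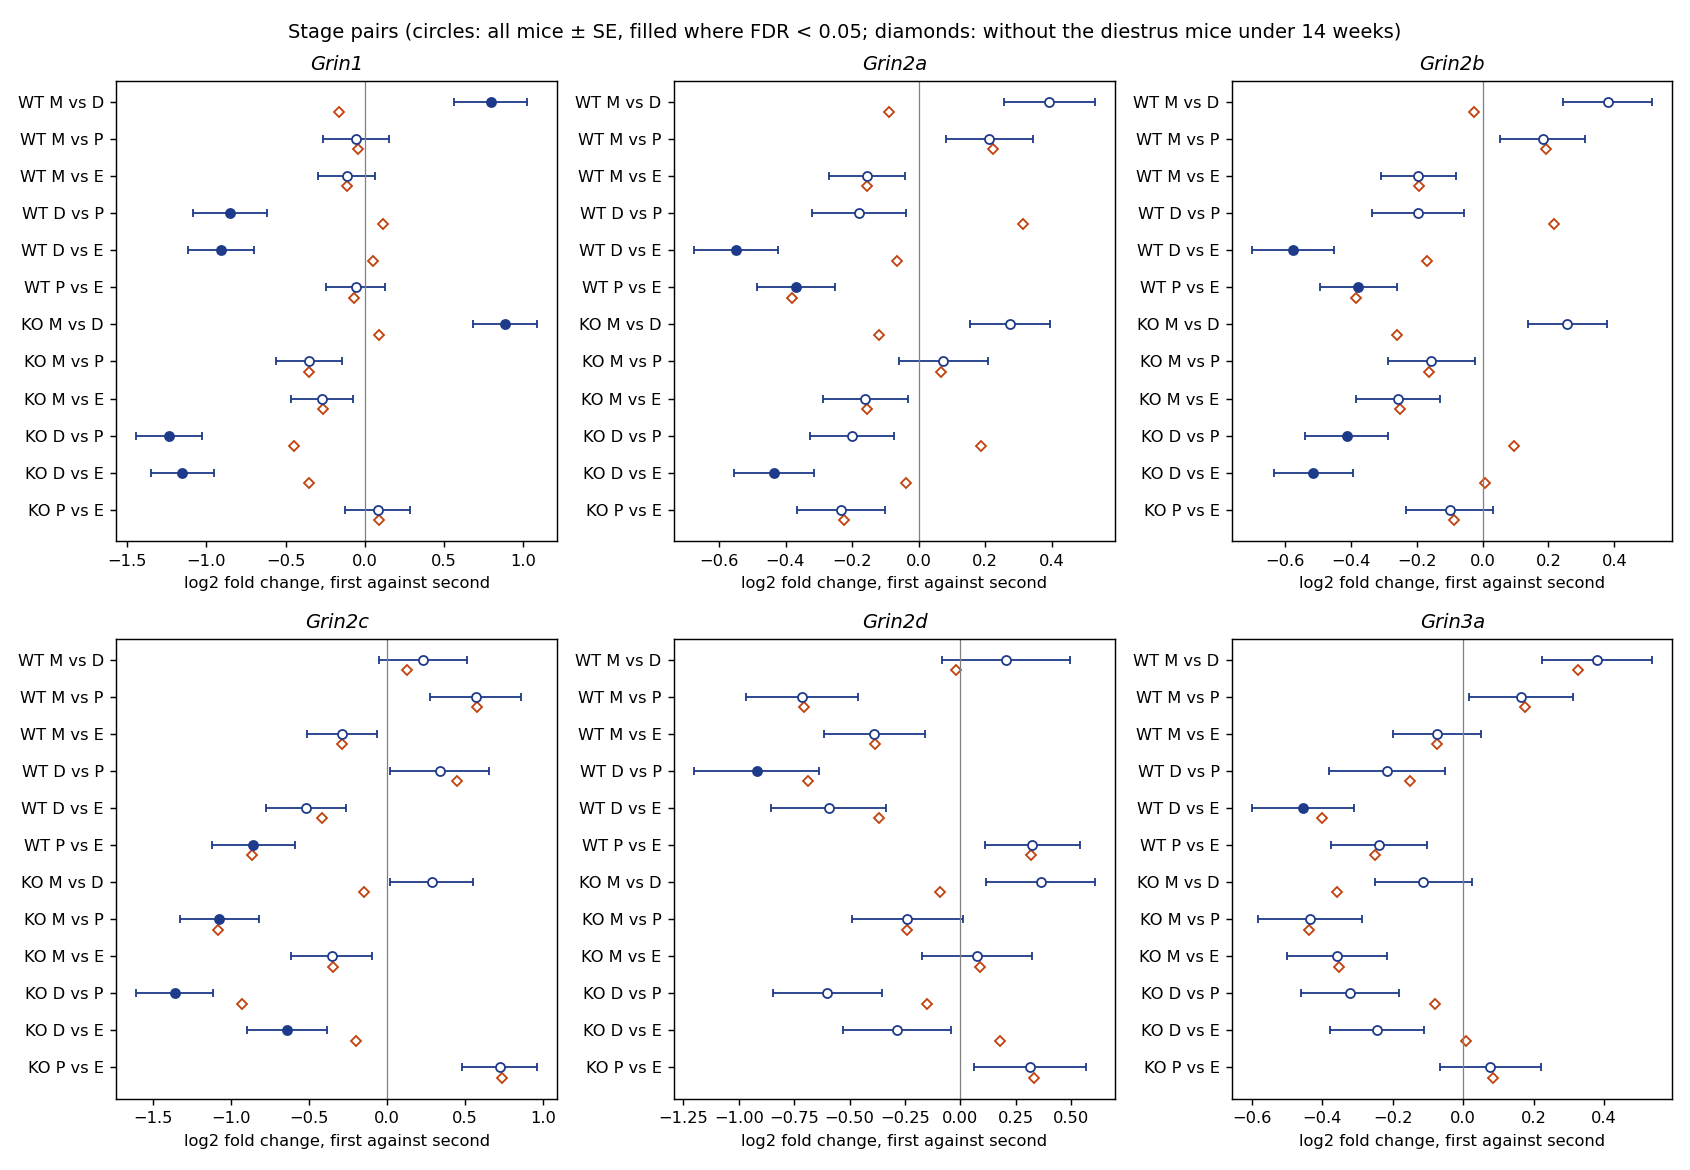
Log2 fold change of each member (horizontal axis, first stage against second) for the 6 stage pairs in WT and in KO (vertical axis; M for metestrus, D for diestrus, P for proestrus and E for estrus), with circles for all 55 mice ± SE, filled where FDR is under 0.05, and diamonds for the fit without the 7 diestrus mice under 14 weeks. The diamonds of Grin1, Grin2a and Grin2b lie between -0.17 and 0.049 in diestrus against estrus in WT, while those for proestrus against estrus lie on the circles.

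Read against all genes, the counts of members were as follows. In WT, 1 of 6 members was called between metestrus and diestrus (7.24% of all genes; 5.59% higher in metestrus, as Grin1 was), 0 between metestrus and proestrus (0.767%), 0 between metestrus and estrus (0%), 2 between diestrus and proestrus (9.66%; 7% lower in diestrus, as both were), 4 between diestrus and estrus (22.1%; 13.1% lower in diestrus, as all 4 were) and 3 between proestrus and estrus (6.82%; 1.56% lower in proestrus, as all 3 were). In KO, 1 was called between metestrus and diestrus (10.4%; 8.2% higher in metestrus), 1 between metestrus and proestrus (4.37%; 1.5% lower in metestrus), 0 between metestrus and estrus (0%), 3 between diestrus and proestrus (34.3%; 19.4% lower in diestrus), 4 between diestrus and estrus (30.7%; 19.3% lower in diestrus) and 0 between proestrus and estrus (0.507%). Without the 7 young diestrus mice, limma called 0 genes in the diestrus stage pairs of either genotype, with 3 WT and 2 KO diestrus mice left. Each member call in a pair with diestrus was lower in diestrus. The pair without diestrus or proestrus, metestrus against estrus, had no gene called in either genotype.

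Against males, 0 of 6 members was called in WT metestrus (0.0309% of all genes), diestrus (0.068%), proestrus (0.0309%) or estrus (0.0495%), and 4 of these 24 tests had an unadjusted p under 0.05 by limma. In KO, 2 members, Grin1 and Grin2b, were called in diestrus (28.7%; 18% lower in diestrus, as both were) and 0 in metestrus (0.359%), proestrus (0.315%) or estrus (7.66%). For all females against males, limma called 0 members in WT (0.0309%) and 0 in KO (5.93%), with 1 of 12 tests under 0.05 before adjustment. edgeR and DESeq2 called no member in the WT and all-female comparisons, and 1, Grin1 in KO diestrus, in the KO ones.

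Between genotypes, 1 member was called in proestrus (0.315% of all genes; 0.0557% higher in KO), and 0 in metestrus (0.0247%), diestrus (0%), estrus (0.179%) and males (0.00619%). For all KO against all WT mice 0 members were called (3.4% of all genes), none had an unadjusted p under 0.05, and edgeR and DESeq2 also called 0. The member estimates ran from -0.10 ± 0.092 for Grin1 to 0.038 ± 0.058 for Grin2a. In diestrus, where the young mice were present in both genotypes, Grin1 differed between KO and WT by -0.27 (FDR = 0.77). Leaving out 1 of WT mice 548, 549 and 569 made this a call, at -0.95 (FDR = 0.0045), -0.95 (FDR = 0.0065) and -0.93 (FDR = 0.011), and leaving out all 7 young mice gave -0.44 (FDR = 1.00).

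The number of calls also depended on the test. Of the 22 member calls, edgeR's quasi-likelihood test and DESeq2 each kept 3, and limma without quality weights kept 4. The 3 that edgeR kept were Grin1 in KO diestrus against KO proestrus (FDR = 0.039) and against KO males (FDR = 0.034), and Grin2c in KO diestrus against KO proestrus (FDR = 0.027). All 3 rest on the KO diestrus group, in which 4 of 6 mice were young.

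The Grin2a to Grin2b ratio was compared between groups as log2 of Grin2a counts over Grin2b counts. It was not scaled for length, so 0 marks equal counts and not equal levels, and per kilobase Grin2a was the higher of the pair. It averaged from -0.22 ± 0.17 in 5 WT males to 0.11 ± 0.094 in 5 KO metestrus mice, and the young diestrus mice ran from -0.26 to 0.26, inside or beside the values of the other groups. In KO metestrus it was 0.23, 0.10, 0.018, 0.17 and 0.012 in mice 10_1, 11_1, 14_4, 6_1 and 7_2, and in KO proestrus it was -0.046, -0.023, -0.13 and -0.56 in mice 12_4, 12_5, 14_1 and 14_2, so that the groups did not overlap. Their difference of 0.30 had p = 0.0079 by a two-sided exact permutation test, adjusted p = 0.12 over 25 comparisons. KO proestrus lay below KO estrus by -0.24 (exact permutation p = 0.0095, adjusted p = 0.12). KO lay above WT in estrus by 0.15 (exact permutation p = 0.020, adjusted p = 0.15) and in metestrus by 0.17 (exact permutation p = 0.024, adjusted p = 0.15). Of the 25 exact tests, 6 had a p under 0.05 and 0 passed after adjustment.

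**Figure D4:**
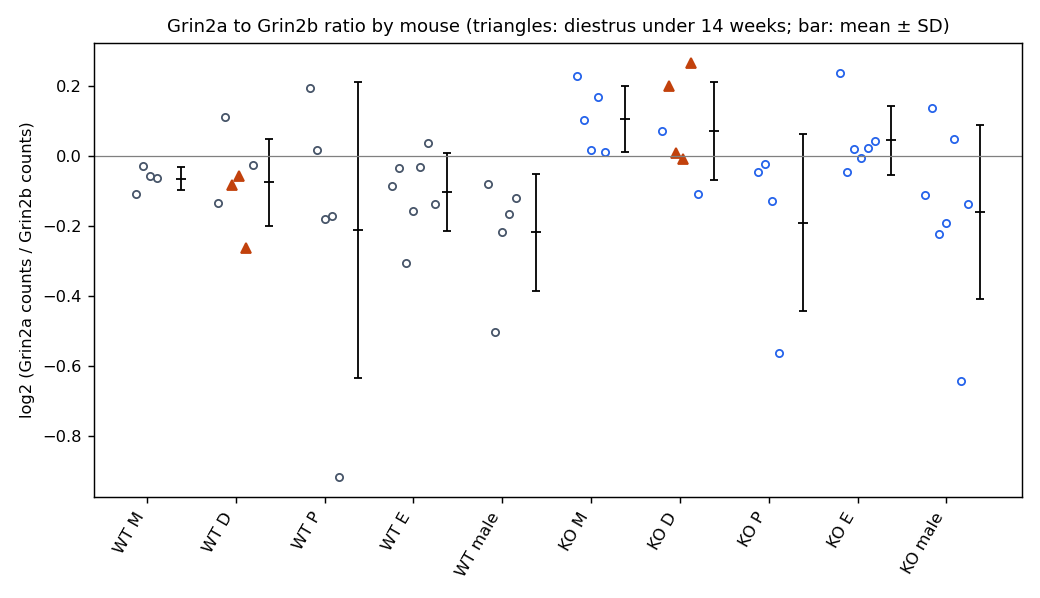
Log2 ratio of Grin2a to Grin2b counts (vertical axis) in every mouse of the 10 groups (horizontal axis; M for metestrus, D for diestrus, P for proestrus and E for estrus), with grey circles for WT, blue circles for KO, filled triangles for the 7 diestrus mice under 14 weeks and bars for the group mean ± SD. The 5 KO metestrus mice lie above 0 and the 4 KO proestrus mice below it.

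The transcript table was used only for members whose annotated transcripts were all listed, Grin2a and Grin2d. The long coding transcript Grin2a-206 held 98.5% to 99.9% of the estimated Grin2a counts in the 55 mice. The retained-intron transcript Grin2a-204 had a median share of 0.46% (0.095% to 0.89%) in the 7 young diestrus mice and 0.55% (0.067% to 1.04%) in the other 48, and the ranges overlapped. Grin2d-201 held 87.1% to 100% of Grin2d, on 12 to 58 estimated counts.

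No relation with age passed the test once the young diestrus mice were left out. Within the other 48 mice, with group means removed from level and age, Pearson's r with age ran from -0.19 for Grin3a (permutation p = 0.21, Spearman's rho -0.19, permutation p = 0.19) to 0.053 for Grin2c (permutation p = 0.72, rho 0.021, permutation p = 0.89), and no relation passed over 7 measures (smallest adjusted p = 0.93 for r and 0.45 for rho). With the 2 ages most distant from the median dropped, r became -0.21 for Grin3a and -0.055 for Grin2c. Over the 7 young diestrus mice, Grin1 had an r of -0.25 with age, given with no test. In all 55 mice with group means removed, no measure passed either (smallest adjusted p = 0.060, for Grin1). With group means kept, Grin1 passed over all 55 mice (permutation p = 0.0012, adjusted p = 0.0085), but its values fall into 2 clusters there, so no pooled r is given. The other 10 mice under 14 weeks had Grin1 between 4.95 and 5.78, above all 7.

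Members moved together between mice of the same group. With group means removed, r over 55 mice was 0.84 for Grin1 with Grin2a, 0.80 for Grin1 with Grin2b and 0.74 for Grin2a with Grin2b, and 0.72, 0.67 and 0.57 over the 48 mice outside the young diestrus set. Grin2a with Grin2c was the weakest pair, at 0.23 and 0.20. By the same measure, the genes most like Grin1 were Ptprs (0.94), Pcnx3 (0.93) and Man2a2 (0.92), those most like Grin2a were Kidins220 (0.94), Tmx4 (0.93) and Marchf6 (0.93), and those most like Grin2b were Kcnma1 (0.95), Ntrk3 (0.95) and Gabbr2 (0.94). The closest to Grin2c were Adrb1 (0.79), Pgrmc2 (0.76) and Wrnip1 (0.76), to Grin2d Sema6b (0.70), Relt (0.67) and Tenm2 (0.66), and to Grin3a Gpr26 (0.71), Atp2b4 (0.70) and Pcdh19 (0.67). Ptprs, Tmx4, Kcnma1, Adrb1 and Gpr26 ranked first for their member over the 48 mice as well. These are descriptions over mice that share normalisation and, in diestrus, the split by age.

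In diestrus against estrus, AMPA and kainate receptor genes were called lower in 6 of 9 cases in WT and 8 of 9 in KO, where 22.1% (13.1% lower) and 30.7% (19.3% lower) of all genes were called. Of 4 AMPA receptor subunit genes, all 4 were called lower in WT diestrus than in WT estrus (median log2 fold change -0.61), with Gria3 at -0.59 ± 0.10 (FDR = 0.00045) and Gria2 at -0.70 ± 0.13 (FDR = 0.00048), and all 4 in KO (median -0.57). Of 5 kainate receptor subunit genes, 2 were called lower in WT, Grik2 at -0.65 ± 0.15 (FDR = 0.0019) and Grik3 at -0.64 ± 0.21 (FDR = 0.026), and 4 in KO. Against proestrus none of the 9 was called in WT by limma and 6 in KO. The median over all tested genes was -0.0087 in WT and -0.015 in KO. Without the 7 young mice no gene was called in diestrus against estrus of either genotype, these 9 included. The AMPA and kainate medians were then -0.10 and -0.11 in WT and -0.023 and -0.13 in KO.

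**Figure D5:**
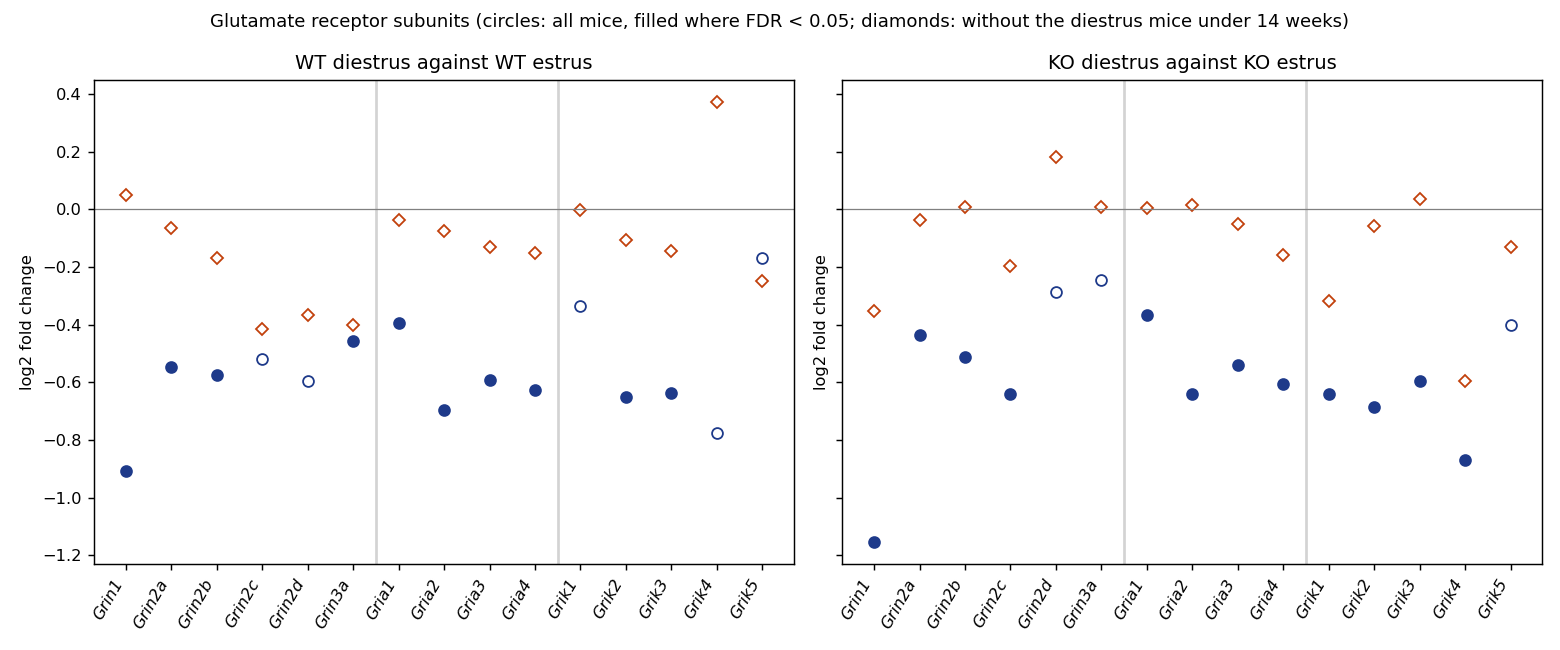
Log2 fold change (vertical axis) of diestrus against estrus for the 6 NMDA, 4 AMPA (Gria) and 5 kainate (Grik) receptor subunit genes in WT (left) and KO (right), with circles for all mice, filled where FDR is under 0.05, and diamonds for the fit without the 7 diestrus mice under 14 weeks. Every circle lies below 0, with Grin1 lowest at -0.91 in WT and -1.15 in KO.

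Of 45 tested genes around the receptor, 8 (17.8%) were called in WT diestrus against estrus, 3 higher and 5 lower, a share near the 22.1% of all genes. None of the 8 was a scaffold gene (the PSD-95 family, Dlgap1 and the Shanks). Of 9 co-agonist genes 2 were called, Slc1a4, a neutral amino acid carrier, lower at -0.65 ± 0.13 (FDR = 0.00091) and Phgdh, which starts serine synthesis, higher at 0.37 ± 0.11 (FDR = 0.011). Of 9 kinase and phosphatase genes 3 were called, with Cdk5 (0.31 ± 0.089, FDR = 0.010) and Camk2a (0.27 ± 0.10, FDR = 0.044) higher and Ppp3ca, a calcineurin catalytic subunit, lower (-0.21 ± 0.061, FDR = 0.011). Of 10 transport and surface partners 2 were called, Ephb2 (-0.73 ± 0.16, FDR = 0.0019) and Grina (-0.41 ± 0.12, FDR = 0.015) lower, and of 9 signalling genes 1, Rasgrf2 (-0.29 ± 0.099, FDR = 0.028), lower. None of these was called without the young mice, where no gene at all was called in this comparison.

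In KO diestrus against KO males, where 28.7% of all genes were called (18% lower), all 4 AMPA genes were called lower, led by Gria4 (-0.59 ± 0.12, FDR = 0.00016), and 4 of 5 kainate genes, led by Grik2 (-0.41 ± 0.12, FDR = 0.011). Of the 45 genes around the receptor 16 (35.6%) were called, 9 higher and 7 lower. Camk2a rose by 0.67 ± 0.087 (FDR = 1.2e-07) while Ptpn5, the phosphatase STEP that acts on NMDA receptors, fell by 0.46 on the log2 scale (FDR = 5.1e-05). The scaffold genes called, 3 of 8, rose, with Dlg2 at 0.41 ± 0.081 (FDR = 0.00015). Of the co-agonist genes, Slc6a9, a glycine carrier, was lower at -1.08 ± 0.22 (FDR = 0.00024) and Srr, the enzyme that makes D-serine, higher at 0.23 ± 0.058 (FDR = 0.0019). Of the partners, 6 of 10 were called, 3 in each direction, with Grina lowest at -0.70 ± 0.11 (FDR = 2.9e-06). Of the signalling genes, Rasgrf1 was higher (0.34 ± 0.077, FDR = 0.00065) and Calm3 lower (-0.22 ± 0.056, FDR = 0.0023). None of these remained without the young mice, with 2 KO diestrus mice left.

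For all KO against all WT, 4 of 54 tested genes of the lists (7.41%) were called, where 3.4% of all genes were. Kif17, the kinesin that carries vesicles with Grin2b protein, was higher in KO by 0.26 ± 0.049 (FDR = 0.00041) and Ptpn5 by 0.20 ± 0.045 (FDR = 0.0051), while Ppp3ca was lower by -0.13 ± 0.028 (FDR = 0.0044) and Psph, the last step of serine synthesis, by -0.17 ± 0.041 (FDR = 0.012). Of these 4, 3 were called without the young diestrus mice as well, all but Psph.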

How the data were processed

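RNA from one dorsal hippocampus per mouse was made into unstranded cDNA libraries, which the authors aligned with STAR 2.7.9a (GRCm38) and counted per gene with featureCounts 2.0.3; the deposited gene table holds raw counts. Their totals exceed the read numbers in the study's sample list, and whether mates were counted separately is not given in the sources used here. The authors' table of log2 CPM was used to check the values here, which matched it for the members. Parentage and RNA integrity came from the study’s sample list. The deposited transcript table holds estimated counts from Salmon 1.5.2, and no other deposited CPM table was used. Of 55774 lines, 287 repeated a gene. In the tables, 1 column matched no listed mouse and was not used.

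The filter asked for more than 1 CPM in 10 or more libraries and removed 5 ribosomal RNA genes, library sizes were recomputed and TMM factors applied. limma 3.58.1 (voom with sample quality weights) was fitted to 10 group means over 55 mice, with 39 contrasts, Benjamini-Hochberg adjustment over 16168 genes within each contrast and a threshold of 0.05, after the study's methods. edgeR 4.0.16 and DESeq2 1.42.0 were alternatives, and the fits were tested on simulated data. The members and the gene lists were chosen with earlier results of these data known. Named in the text were the members in every comparison, the 3 genes most correlated with each member, and, of the lists, up to 4 called genes, ranked by FDR, from WT diestrus against WT estrus, KO diestrus against KO males and all KO against all WT. Depth limits Grin2c and Grin2d most, and a log2 fold change is relative to all genes in a library.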

Additional observations from a re-analysis of the deposited data

Results flagged for a closer look

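Of 70 sets of 4 to 7 mice (6 members and the Grin2a to Grin2b ratio in 10 groups), 5 held a mouse whose gap to its nearest neighbour was large for the range of its group, where chance gives about 1 in 20, or 3.5. Grin1 in KO metestrus mouse 7_2 was 4.75 log2 CPM, with the next lowest at 5.16, and this library was also among the lowest outside diestrus in nuclear-retained RNA. Grin1 in KO diestrus mouse 7_1 was 5.54, with the next highest at 4.65, in the group where 4 of 6 mice were under 14 weeks. Grin2d in KO estrus mouse 12_2 was 1.58, with the next at 0.67. Grin3a in WT male 2052 was 3.85, with the next at 3.38. The log2 ratio of Grin2a to Grin2b in KO estrus mouse 12_1 was 0.24, with the next at 0.044.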

How the results depend on the processing

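The number of member calls moved with the test and with the mice. Of the 22 calls, age as a covariate kept 15 and lost 7. Leaving out the 2 WT proestrus mice of RNA integrity under 8 kept 19 and lost 3. In WT stage pairs the 10 calls became 0 with edgeR, 0 with DESeq2, 0 without quality weights and 4 without the filter on low counts. They became 2 in mice of 14 weeks or more and 3 without the young diestrus mice, an alternative chosen after seeing the data. In KO stage pairs the 9 calls became 2, 2, 3 and 4 under the first 4 of these, 0 in mice of 14 weeks or more and 1 without the young diestrus mice. The 2 calls of KO stages against males became 1 with edgeR, DESeq2, no weights, no filter or age as a covariate, and 0 at 14 weeks or more or without the young diestrus mice. The 1 call between genotypes within a stage became 0 with edgeR, DESeq2, no weights, no filter, age as a covariate or without the young diestrus mice. At 14 weeks or more and in Cnih3 matings 1 proestrus mouse was left in KO or in WT, so no count is given for it. In Cnih3 matings WT metestrus, proestrus and estrus held 1 mouse each and were assumed to vary like the other groups, so effect sizes alone are given. In WT diestrus against WT males these were -1.63 for Grin1, -0.64 for Grin2a, -0.69 for Grin2b and -0.79 for Grin2c. For all KO against all WT, Grin2b was at -0.25. Without the 2 mice of RNA integrity under 8, interactions went from 0 to 3.

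Signs turned in 12 fits. At 14 weeks or more Grin1 in WT was -0.21 for metestrus against diestrus, 0.028 for diestrus against proestrus and 0.043 for diestrus against estrus, and Grin2b in KO diestrus was 0.31 against proestrus and 0.12 against males; that subset held 2 KO diestrus mice and 1 KO proestrus mouse, assumed to vary like the other groups. Without the young diestrus mice the same values were -0.16, 0.12, 0.049, 0.096 and 0.12, and Grin2b in KO diestrus against estrus was 0.0080. With Cnih3 matings, which left 1 WT proestrus and 1 WT estrus mouse, Grin2b in proestrus against estrus was 0.39. Of the 5 WT proestrus mice only 8_2, at 8.99, lay above the WT estrus range of 8.41 to 8.73. That last value therefore rests on mouse 8_2, which had RNA integrity under 8. The cause of the turned signs was not tested.

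Leaving out 1 mouse at a time gave 3 to 15 calls in WT stage pairs, 6 to 11 in KO stage pairs, 0 to 4 for WT and 1 to 4 for KO stages against males, 0 to 0 for all females against males, 0 to 3 between genotypes within a stage, 0 to 0 for all KO against all WT and 0 to 2 for interactions. The ratio of Grin2a to Grin2b gave 0 to 0. Median-of-ratios size factors kept 21 of the 22 calls.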
